A study of Mus musculus with 12 samples.

Results

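The 29 genes described here make up the GABA system of the mouse hippocampus and the interneurons that release GABA: genes for GABA synthesis, vesicular transport, uptake and breakdown, subunits of the GABA-A and GABA-B receptors, the scaffold of inhibitory synapses, and genes that mark interneuron classes. They were taken by gene symbol from a list drawn up by function, a rule that uses no measured value, and are 29 of the 55487 genes in the deposited table. Hippocampal RNA was sequenced from 6 WT mice and 6 mice without USF-1 (USF-1 KO), a factor that recognises the DNA word CACGTG, called the E-box, with 1 library per mouse. All mice were littermates bred from heterozygous parents, carried the strain label C57Bl/6JRccHsd and were 3 to 4 months old; the labels give 4 females and 2 males among WT mice and 2 females and 4 males among KO mice. The deletion was constitutive, so the data do not separate loss of USF-1 in neurons from loss elsewhere in the body. Mice are named here by genotype and number, as in WT 490, with WT sample573 as its label spells it.

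GABA is the main inhibitory transmitter of the adult brain. Interneurons make it from glutamate with the enzymes GAD67 and GAD65 (Gad1 and Gad2) and load it into vesicles with the transporter VGAT (Slc32a1); neighbouring astrocytes and nerve endings take it up again and the transaminase encoded by Abat degrades it. Principal cells, which form most of the hippocampus, receive it through GABA-A receptors, which are chloride channels, and through GABA-B receptors, which couple to G proteins. The 29 genes therefore come from different cells: the enzymes, peptides and transcription factors chiefly from interneurons, and most receptor subunits chiefly from the far more numerous principal cells. Hippocampal interneurons fall into classes that are told apart by parvalbumin, by the peptides somatostatin, neuropeptide Y, cholecystokinin and vasoactive intestinal peptide, and by reelin. In bulk tissue, a lower value of an interneuron gene from fewer such cells and from less RNA in each cell cannot be told apart.

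USF-1 binds the E-box, so the sequences before the starts of the 29 genes were searched for it. Promoter windows of 300 bases (250 before and 50 after the start, RefSeq on GRCm38.p6) were at hand for 26 of the 29 genes, all but Abat, Gabrd and Dlx6. CACGTG, which reads the same on both strands, occurred in the windows of 3 genes (11.5%), against 8.09% of 27025 genes and 7.15% of 32851 windows in the same set. The sequences of these 3 genes are shown 5′ to 3′ with the E-box in capitals, because these are the members in which the word that USF-1 binds stands close to the start. For Cck (cholecystokinin) and Reln (reelin) the 120 bases that end at the start are given. For Cnr1, the CB1 cannabinoid receptor found on endings of cholecystokinin interneurons, 30 bases around the E-box are given, since GENCODE starts this gene at 33924593, just before the word.
Cck, chr9:121495695-121495814, reverse strand: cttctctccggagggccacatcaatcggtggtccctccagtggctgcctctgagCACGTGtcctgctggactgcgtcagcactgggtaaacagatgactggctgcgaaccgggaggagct
Reln, chr5:22344706-22344825, reverse strand: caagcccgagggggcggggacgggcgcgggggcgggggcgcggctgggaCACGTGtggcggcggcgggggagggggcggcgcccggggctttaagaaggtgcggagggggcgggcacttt
Cnr1, chr4:33924583-33924612, forward strand: aaggctcattaaCACGTGatgggaccacgc
The word begins 66 bases before the start of Cck, 71 before that of Reln and 49 before that of Cnr1, in 1 of the 3 windows of the latter. In KO mice these genes had log2 fold changes of 0.045 (Cck), −0.052 (Reln) and −0.048 (Cnr1), with adjusted p from limma of 0.779, 0.865 and 0.655. None of the 3 genes with an E-box in this window passed the threshold. A match is a description of the letters and no evidence of binding.

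The values are DESeq2-normalised counts, reads on each gene divided by a factor for the library, and came from 21679622 to 32091173 reads per mouse. KO and WT mice were compared by limma, on the scale log2(normalised count + 1), over all 18221 genes with a mean of at least 10, and called at a Benjamini-Hochberg adjusted p under 0.05; fold changes are on that scale. Usf1 itself was between 842 and 1583 in WT mice, with WT 493 the lowest and the others at 1425 or more, and between 117 and 163 in KO mice. The dissections differed between mice. Summed thalamus markers (6 genes) were 6632 in WT 490 and 6813 in KO 488 but 1857 to 4392 in the other mice, choroid plexus markers were 57372 in WT 490 and 162349 in WT 493 against at most 2639.9 elsewhere, and WT 522 stood apart with the lowest dentate granule cell marker sum (5276 against 6564 or more). Summed markers of principal cells ranged from 168006 to 215487 in WT mice and from 160191 to 235833 in KO mice, and those of oligodendrocytes from 83576 to 180879 and from 71972 to 110270.0. The markers of dentate, CA1 and CA3 neurons were detected in every mouse, as were all markers of the lists used but Kcne2, a choroid plexus gene at 0 in WT 522. The part of the dissection in the results was not tested, and values without the mice concerned are given where they matter.

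No gene of the 29 passed the test for a difference between genotypes. By limma 0 of the 29 passed the adjusted threshold, against 0.900% of all genes tested, all 29 having a mean high enough to be tested. At an unadjusted p under 0.05, 2 of the 29 were higher in KO mice (Nlgn2 and Lhx6), against 5.92% of all genes, and 2 were lower (Abat and Npy), against 7.60%. Of the other tools, edgeR called 0 of the 29 (0.829% of all genes) and DESeq2 called 1, Abat (3.74% of all genes given an adjusted p). Log2 fold changes were above 0 in 12 of the 29 genes, against 49.8% of all genes, with a median of −0.016, and no gene had ranges of WT and KO mice that did not overlap, against 1.50% of all genes. In 20 of the 29 the log2 fold change was below 0.1 in size. In 16 the 95% confidence interval lay within ±0.25, that is, the data leave room for a rise of at most 18.9% there; in the other 13 larger differences could not be seen or dismissed at this number of mice.

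**Figure D1:**
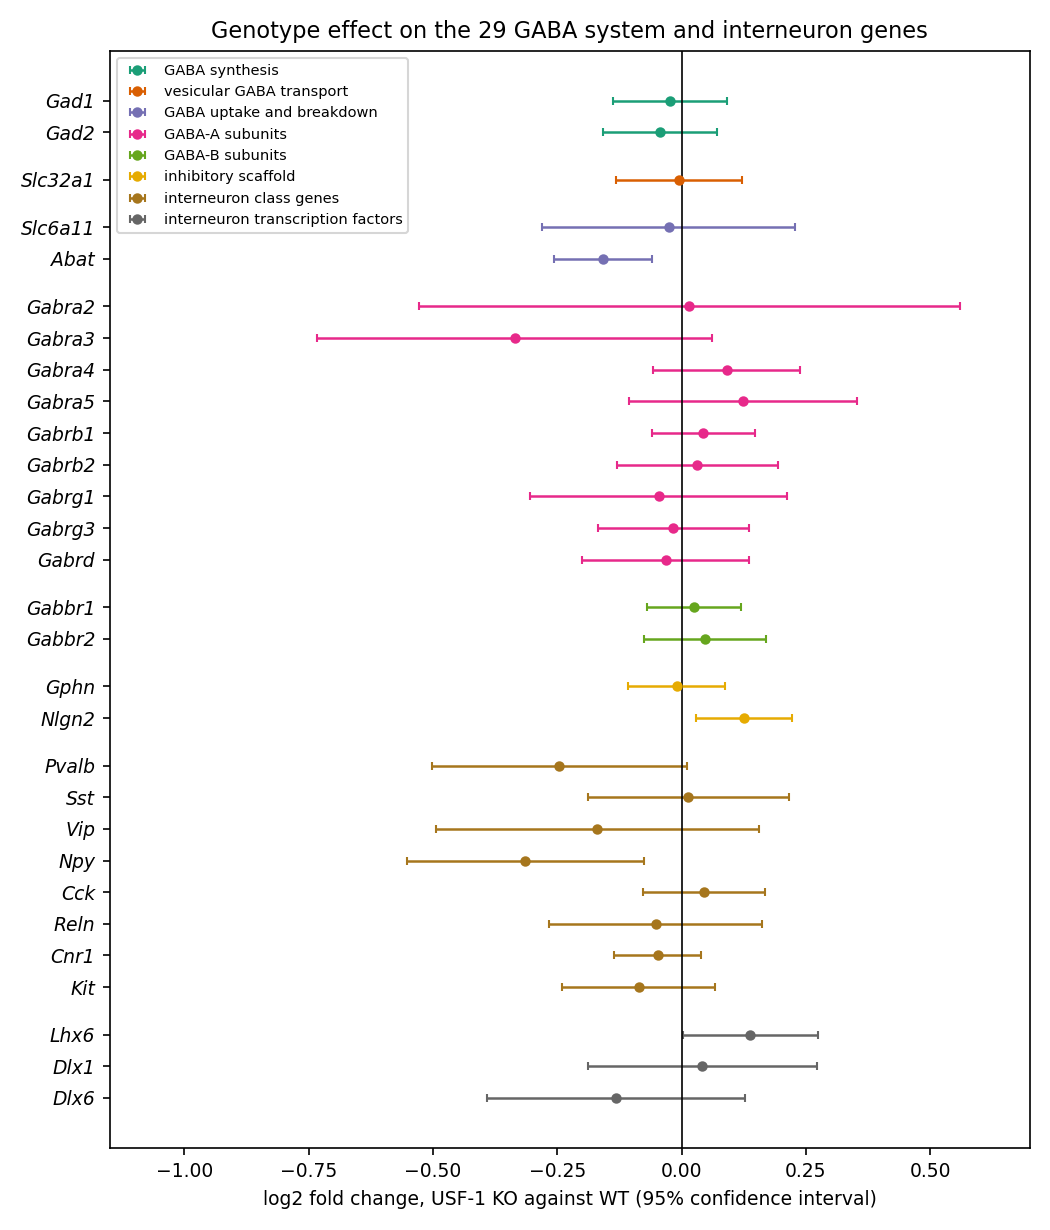
Log2 fold changes of the 29 genes in USF-1 KO against WT mice (limma, horizontal axis), grouped and coloured by role; points are estimates and bars are 95% confidence intervals over 6 mice per genotype. The intervals of Abat, Npy, Nlgn2 and Lhx6 leave out 0 before adjustment, and those of Gabra2 and Gabra3 are the widest.

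The enzymes and the vesicular transporter that define GABA neurons had close means in both genotypes. Gad1 (ENSMUSG00000070880, chromosome 2, 70553072 to 70602014), the gene for GAD67, which makes most of the cell's GABA, was from 6722 to 8242 (median 7180.0) in WT mice and from 6379 to 7597 (median 7336) in KO mice. KO 553 was the lowest mouse, at 6379, and the rest of the KO mice lay within the WT range. The log2 fold change of −0.024 (95% confidence interval −0.14 to 0.091, standard error 0.0535, unadjusted p = 0.663, limma adjusted p = 0.889) corresponds to between 9.16% less and 6.51% more. Gad2, the gene for GAD65, which serves GABA release at nerve endings, was from 2988 to 3549 (median 3376) in WT mice and from 3003 to 3697 (median 3239) in KO mice. Its log2 fold change was −0.044 (95% confidence interval −0.16 to 0.071, limma adjusted p = 0.772), and the genotypes overlapped. Slc32a1, which encodes VGAT, was from 1321 to 1659 (median 1507) in WT mice and from 1399 to 1699 (median 1472) in KO mice, with a log2 fold change of −0.0055 (95% confidence interval −0.13 to 0.12, limma adjusted p = 0.979).

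Of the genes that remove GABA, Abat stood out and Slc6a11 did not. Abat (ENSMUSG00000057880, chromosome 16, 8513429 to 8621568) encodes GABA transaminase, the mitochondrial enzyme that starts the breakdown of GABA. In WT mice its normalised count was 6976 in WT 490, 6689.7 in WT sample573, 6421 in WT 523, 6773 in WT 522, 6653 in WT 493 and 6242 in WT 547. In KO mice it was 6585 in KO 488, 5649 in KO 530, 5464 in KO 484, 5785 in KO 553, 6128 in KO 564 and 6064 in KO 482. All 6 KO mice were below the WT mean and 5 of 6 were below the lowest WT mouse, KO 488 being the exception. The means were 6626 ± 260.0 in WT mice and 5946 ± 400.4 in KO mice (SD, n = 6 each), a log2 fold change of −0.16 (95% confidence interval −0.26 to −0.059, standard error 0.0461, unadjusted p = 0.00412, limma adjusted p = 0.133). The difference, 10.4% less in KO mice, did not pass the threshold by limma. DESeq2 on the recovered reads gave the same size (−0.16) and an adjusted p of 0.0385, the only call among the 29 genes under any alternative; over all alternatives the adjusted p ran from 0.0385 to 0.427. Of the glial markers, those of oligodendrocytes and microglia had lower values in KO mice as well. By limma 6 of 6 oligodendrocyte genes and 4 of 5 microglia genes had an unadjusted p under 0.05, against 7.60% of all genes. Of either list 0 passed the adjusted threshold, and microglia sums were 5921 to 8389.7 in WT and 5522 to 6358 in KO mice. Astrocyte markers did not share this: 3 of 6 had a log2 fold change above 0 and 3 below, with a median of −0.0019. Among them 0 had an unadjusted p under 0.05, and their sums were 88010 to 117336 in WT and 94162 to 105088 in KO mice. The part of these cells in the value of Abat was not tested.

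Slc6a11 encodes GAT-3, the GABA transporter of astrocytes, which is abundant in thalamus. It was from 3703 to 5082 (median 4284) in WT mice and from 3431 to 5883 (median 3953) in KO mice. The highest values belonged to KO 488 (5883) and WT 490 (5082), the same mice in which the thalamus marker Tcf7l2 was 893 and 672 against 87.4 to 329 in the others. All 6 thalamus markers were detected in every mouse. The genotypes overlapped, with a log2 fold change of −0.026 (95% confidence interval −0.28 to 0.23, limma adjusted p = 0.95), and without these mice it was −0.074 (adjusted p = 0.772).

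**Figure D2:**
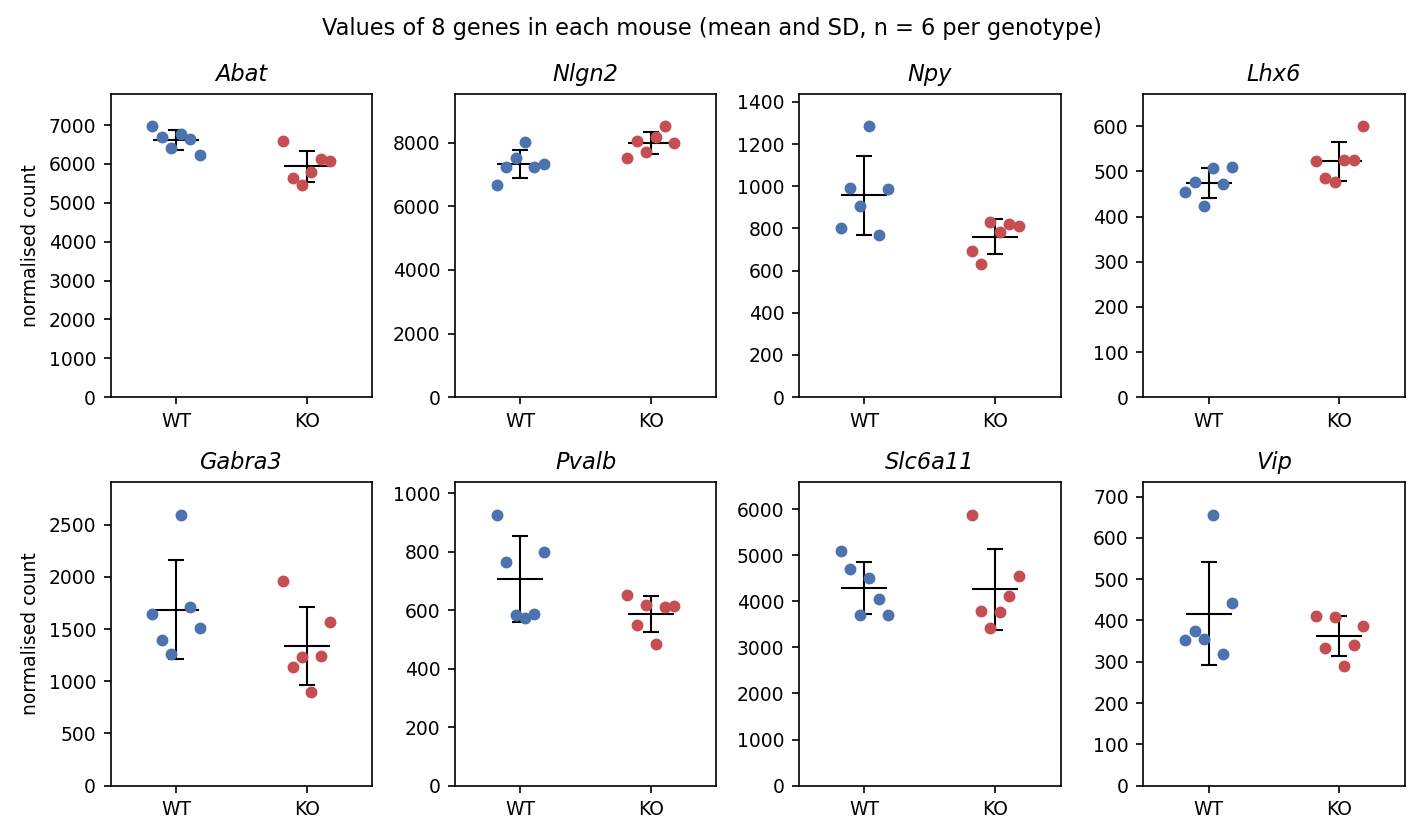
Normalised counts (vertical axes, from 0) of 8 genes in each of the 6 WT (blue) and 6 USF-1 KO (red) mice, with the mean and SD in black. In Abat 5 of the 6 KO mice lie below all WT mice, in Nlgn2 3 of the 6 KO mice lie above all WT mice, and in Gabra3 and Vip a single WT mouse, WT 522, lies far above the rest.

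The receptor subunits were expressed at very unequal levels, and the order was the same in both genotypes at its ends. Per kilobase of exon, Gabbr1, the ligand-binding subunit of the GABA-B receptor, was highest, with 2517 ± 114 normalised counts per kilobase over the 12 mice (SD, n = 12), above every other receptor gene in every mouse. Gabra5, the subunit of extrasynaptic and slow synaptic receptors of pyramidal cells (1422 ± 204), and Gabbr2, the subunit through which the GABA-B receptor signals (1376 ± 98.3), followed with overlapping ranges. A middle group lay between 259.7 (Gabrd) and 464 (Gabra2) per kilobase, in the order Gabra2, Gabra3, Gabra4, Gabrb1, Gabrb2 and Gabrd, and the range of each overlapped that of its neighbour. Gabrg1 (53.8 ± 8.33) and Gabrg3 (50.9 ± 4.21), the less used gamma subunits, were lowest and below Gabrd in every mouse. These levels rest on exon lengths of all annotated transcripts of a gene and so on more sequence than any 1 transcript holds.

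**Figure D3:**
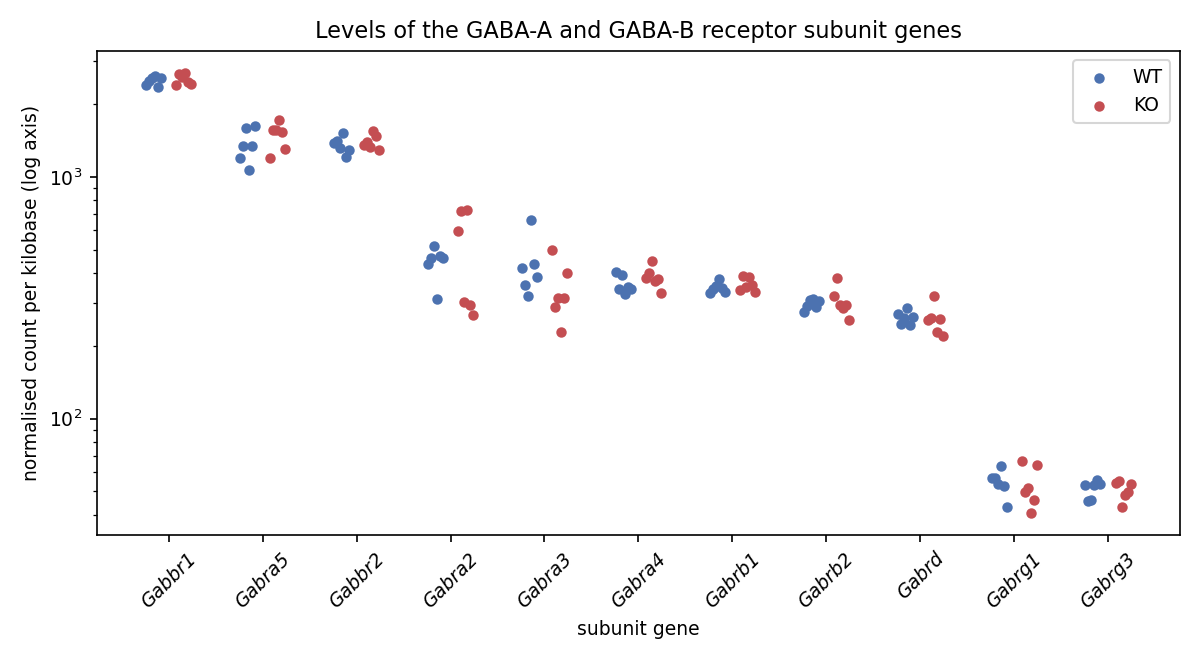
Normalised counts per kilobase of exon (log axis) of the 11 receptor subunit genes, ordered by their mean, in 6 WT (blue) and 6 USF-1 KO (red) mice; each point is a mouse. Gabbr1 lies above and Gabrg1 and Gabrg3 lie below the rest in all mice, while the KO mice of Gabra2 fall into a high and a low group.

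Of the 11 receptor subunits 0 passed the threshold for genotype by limma, edgeR or DESeq2, and 0 had an unadjusted p under 0.05. Gabra3 (ENSMUSG00000031343, chromosome X, 72432681 to 72656848), an alpha subunit that is sparse in hippocampus and common in neighbouring cortex and thalamic nuclei, had the largest difference. It was from 1262 to 2597 (median 1577) in WT mice and from 899 to 1957 (median 1237) in KO mice. The WT mouse at 2597 was WT 522, the next WT mouse lay at 1709, and the highest KO mouse was KO 488. Its log2 fold change of −0.34 (95% confidence interval −0.73 to 0.061, standard error 0.185, unadjusted p = 0.0909, limma adjusted p = 0.46) did not pass the threshold, and without WT 522 it was −0.20 (adjusted p = 0.573). Over all alternatives it ran from −0.45 to −0.20. The unadjusted p from limma was under 0.05 without WT 523, without KO 488, and without WT 490 and KO 488 together. None of these passed, the lowest adjusted p being 0.191 (limma, without KO 488). Gabra5 had the largest difference in the other direction and was from 3185 to 4833 (median 4000.2) in WT mice and from 3564 to 5106 (median 4603) in KO mice, with a log2 fold change of 0.12 (95% confidence interval −0.11 to 0.35, limma adjusted p = 0.664).

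The means of the remaining GABA-A subunits lay close together. Gabra4, which forms extrasynaptic receptors with the delta subunit in dentate granule cells, was 2194 ± 185 in WT mice and 2338 ± 234 in KO mice (SD, n = 6 each), a log2 fold change of 0.090 (limma adjusted p = 0.612). Its partner Gabrd was 752 ± 44.6 in WT mice and 741 ± 103 in KO mice (SD, n = 6 each) (−0.032, limma adjusted p = 0.899). The beta subunits, which every common receptor contains, had log2 fold changes of 0.044 (Gabrb1) and 0.032 (Gabrb2), and the gamma subunits of −0.046 (Gabrg1) and −0.016 (Gabrg3). Adjusted p over these 6 genes ran from 0.612 to 0.947 by limma.

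Both subunits of the GABA-B receptor were measured with high precision. Gabbr1 was from 18309 to 20330.3 (median 19549.6) in WT mice and from 18620.1 to 20914 (median 19595) in KO mice, with a log2 fold change of 0.024 (95% confidence interval −0.070 to 0.12, limma adjusted p = 0.853). Gabbr2 was from 8101 to 10129.9 (median 9027) in WT mice and from 8613 to 10323 (median 9182) in KO mice, with 0.047 (−0.076 to 0.17, adjusted p = 0.772). In each the genotypes overlapped over most of their range.

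Gabra2 was the one receptor gene whose KO mice were widely split, and it is described in full although the rule for naming genes did not ask for it, having been chosen after its values were seen. Gabra2 (ENSMUSG00000000560, chromosome 5, 70957597 to 71095849, reverse strand) encodes an alpha subunit found on the cell body and axon start of pyramidal cells. In KO mice its normalised count was 2045 in KO 482, 2245 in KO 564 and 2321 in KO 484, and 4579 in KO 488, 5507 in KO 530 and 5550.4 in KO 553, with none between. In WT mice it was 2396 in WT 522 and between 3324 and 3939 in the other 5. The means were close (3382 ± 523 in WT mice and 3708 ± 1686 in KO mice (SD, n = 6 each)), while the coefficient of variation was 45.5% in KO mice and 15.5% in WT mice. Expression of Gabra2 is known to differ between C57Bl/6 substrains; the locus was not genotyped here, and whether its form differed between these mice was not tested. Both female KO mice were in the high group together with the male KO 553, and the low KO mice were male. The log2 fold change of 0.016 had a 95% confidence interval of −0.53 to 0.56 (limma adjusted p = 0.987).

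The genes beside Gabra2 did not share this split. On chromosome 5 Gabra2 stands in a cluster with Gabrg1, Gabra4 and Gabrb1, which span 70751047 to 72149037 together. In the 3 low KO mice Gabrg1 was 506, 361 and 406 (KO 482, KO 564 and KO 484), and in the 3 high ones 526, 391 and 321 (KO 488, KO 530 and KO 553). Gabra4 was 2008, 2291 and 2724 in the former and 2326, 2423 and 2258 in the latter. Neither set of values separated the same mice. Gabrb1 varied least, from 4570.1 to 5392 over all 12 mice. The coefficient of variation in KO mice was 19.4% for Gabrg1, 10.01% for Gabra4 and 6.65% for Gabrb1.

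**Figure D4:**
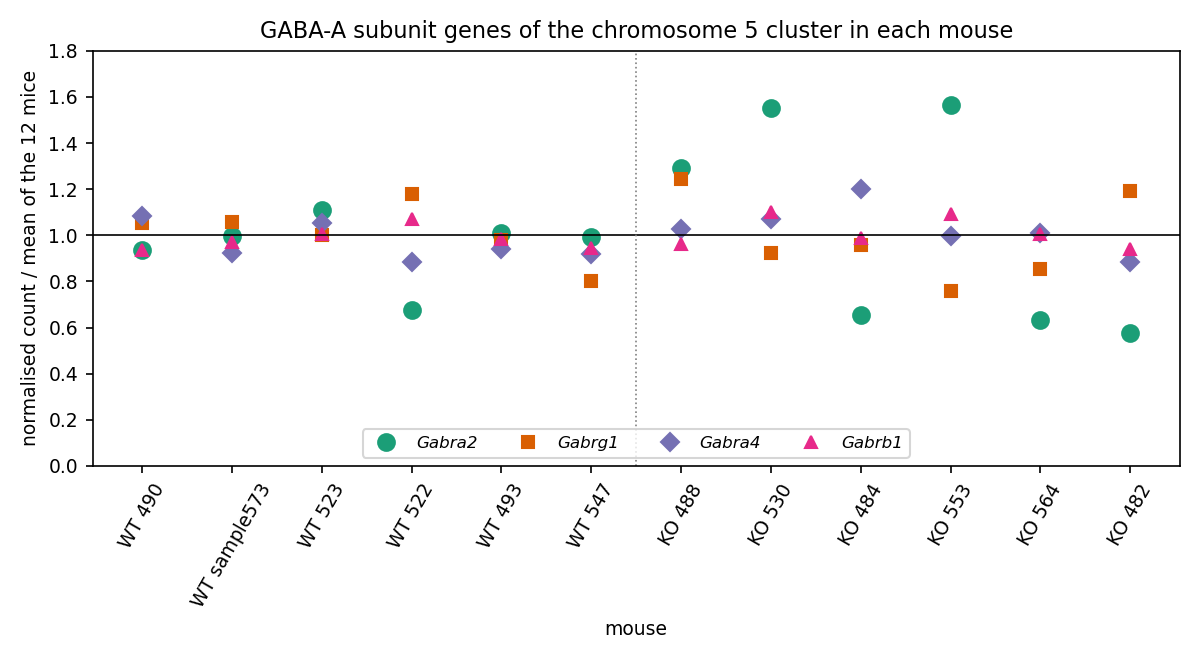
Normalised counts of the 4 GABA-A subunit genes of the chromosome 5 cluster in each mouse, divided by the mean of the gene over the 12 mice (vertical axis, from 0); WT mice are left and KO mice right of the dotted line. The circles of Gabra2 fall to 2045 normalised counts in KO 482 and reach 5550.4 in KO 553, whereas the other genes stay closer to their means.

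At the inhibitory synapse, the adhesion molecule gene Nlgn2 had the higher mean in KO mice, short of the threshold, and the scaffold gene Gphn had nearly equal means. Nlgn2 (ENSMUSG00000051790, chromosome 11, 69823122 to 69837784) encodes neuroligin-2, which recruits receptors to inhibitory synapses. It was 6665, 7239, 7508, 8011, 7238 and 7323 in WT 490, WT sample573, WT 523, WT 522, WT 493 and WT 547. In KO 488, KO 530, KO 484, KO 553, KO 564 and KO 482 it was 7519, 8054, 7698, 8173, 8517 and 7989.8. All 6 KO mice were above the WT mean and 3 of 6 were above the highest WT mouse, WT 522, so that the genotypes overlapped. The means were 7331 ± 437 in WT mice and 7992 ± 353 in KO mice (SD, n = 6 each), a log2 fold change of 0.13 (95% confidence interval 0.029 to 0.22, standard error 0.0451, unadjusted p = 0.0146, limma adjusted p = 0.227). Over all alternatives the adjusted p ran from 0.0731 (without WT 522) to 0.613 (without WT 490 and WT 493, where the log2 fold change was 0.088 and the unadjusted p 0.0862), and with quantile normalisation the log2 fold change was 0.080. Gphn, which encodes gephyrin, the protein that anchors GABA-A and glycine receptors, was from 1487 to 1795 (median 1718) in WT mice and from 1633 to 1742 (median 1680.4) in KO mice. All KO mice lay inside the WT range, WT 522 was the lowest mouse, and the log2 fold change was −0.0096 (95% confidence interval −0.11 to 0.088, limma adjusted p = 0.954).

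Among the genes of interneuron classes, Npy had the lowest values in KO mice relative to WT. Npy (ENSMUSG00000029819, chromosome 6, 49822710 to 49829507) encodes neuropeptide Y, made by neurogliaform, ivy and many somatostatin interneurons. It was 800.1 in WT 490, 993 in WT sample573, 907 in WT 523, 1286 in WT 522, 769.6 in WT 493 and 987 in WT 547. In KO mice it was 692 in KO 488, 633 in KO 530, 832 in KO 484, 783 in KO 553, 820.5 in KO 564 and 811 in KO 482. All 6 KO mice were below the WT mean but only 2 of 6, both female, were below the lowest WT mouse, and WT 522 was high. The means of 957 ± 186 in WT mice and 762 ± 80.8 in KO mice (SD, n = 6 each) gave a log2 fold change of −0.31 (95% confidence interval −0.55 to −0.076, standard error 0.111, unadjusted p = 0.0133, limma adjusted p = 0.219). Without WT 522 the log2 fold change was −0.23 (adjusted p = 0.222), and DESeq2 gave −0.33 (adjusted p = 0.0976). Over all alternatives it ran from −0.45 to −0.23. The unadjusted p was under 0.05 in each of them, and the adjusted p ran from 0.0976 (DESeq2) to 0.386, so that none passed.

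Pvalb, which encodes the calcium buffer parvalbumin of fast-spiking basket and axo-axonic cells, was from 572 to 927 (median 677) in WT mice and from 483 to 651 (median 613) in KO mice. WT mice spread more than KO mice: WT 490, WT 547 and WT sample573 were at 927, 799.7 and 766, and the other WT mice were at 572 to 588, within the KO range. Its log2 fold change of −0.25 (95% confidence interval −0.50 to 0.011, standard error 0.119, unadjusted p = 0.059, limma adjusted p = 0.393) did not pass. In none of the alternatives did Pvalb pass either, the lowest adjusted p being 0.226 (limma, without WT 522). Its log2 fold change ran from −0.30 to −0.16 over them. The unadjusted p was under 0.05 by edgeR, by DESeq2 and by limma with no limit on low values. By limma it was so too without WT 523, WT 522, WT 493 or KO 488, each left out singly, and in no other alternative.

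The remaining class genes showed small differences. Sst, the gene for somatostatin, was the most abundant interneuron gene per kilobase (5985 ± 739 over 12 mice, SD) and was 4305 ± 653 in WT mice and 4325 ± 446 in KO mice (SD, n = 6 each), a log2 fold change of 0.014. Cck, which basket cells share with pyramidal cells, was 4683 ± 421 in WT mice and 4821 ± 231 in KO mice (SD, n = 6 each) (0.045). Vip, the peptide gene of interneurons that mostly contact other interneurons, was 417 ± 124 in WT mice and 362 ± 48.1 in KO mice (SD, n = 6 each) (−0.17); WT 522 alone reached 657 while the other WT mice were at 318 to 443, and without it the log2 fold change was −0.030. Reln, made by Cajal-Retzius cells and several interneuron classes, had −0.052 and spread from 1492 to 2475 among KO mice. Cnr1 had −0.048 and was the steadiest of the class genes, with a coefficient of variation of 5.13% in WT and 4.02% in KO mice. Kit, a receptor tyrosine kinase that marks cerebellar and some forebrain interneurons, had −0.086. Adjusted p over these 6 genes were 0.648 to 0.968 by limma.

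Of the transcription factors, Lhx6, which specifies parvalbumin and somatostatin interneurons, had the higher mean in KO mice, again short of the threshold. Lhx6 (ENSMUSG00000026890, chromosome 2, 36081953 to 36105408) was from 424 to 510.3 (median 474) in WT mice and from 476 to 600.3 (median 523) in KO mice. All 6 KO mice were above the WT mean and 4 of 6 above the highest WT mouse, with KO 482 the highest. The means were 474 ± 32.9 in WT mice and 522 ± 43.8 in KO mice (SD, n = 6 each), a log2 fold change of 0.14 (95% confidence interval 0.0021 to 0.27, standard error 0.0634, unadjusted p = 0.047, limma adjusted p = 0.361). Without KO 482 the unadjusted p was 0.116, and with sex as a covariate it was 0.112. It was also not under 0.05 by edgeR, by limma without the trend, or without either pair of mice with thalamus or choroid plexus markers. The same held for limma without WT 490, WT sample573, WT 523, WT 493, KO 488, KO 553 or KO 564, each left out singly. Dlx6 and Dlx1, homeobox genes of forebrain interneurons, did not pass. Dlx6 was from 74.8 to 99.0 (median 92.9) in WT mice and from 70.6 to 115 (median 81.6) in KO mice. Its log2 fold change was −0.13 (limma adjusted p = 0.686), with KO 482 above all other mice. Dlx1 was 343 ± 43.4 in WT mice and 355 ± 59.6 in KO mice (SD, n = 6 each) (0.041, limma adjusted p = 0.906). Dlx6 lies within the antisense gene Dlx6os1, whose mean normalised count was 347 against 87.7 for Dlx6, and Dlx1 within Dlx1as (118); the labels name a NEBNext Ultra II kit and no strand setting, so reads of such pairs may not have been kept apart. The same holds for the 196 bases that Gabra4 shares with Gabrb1.

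Receptor subunits, carried mostly by principal cells, were then set beside the interneuron genes. Of the 11 receptor subunits 7 had a log2 fold change above 0 and 4 below, with a median of 0.024 and a range from −0.34 to 0.12. Of the 11 interneuron genes (8 class genes and 3 transcription factors) 4 were above 0 and 7 below, with a median of −0.052 and a range from −0.31 to 0.14. The median over all 18221 genes was −0.00065. Both medians lay within 0.1 of 0, and the ranges of the lists overlapped. Per mouse, the mean of the centred log2 values of the receptor subunits was −0.032 to 0.055 in WT mice and −0.11 to 0.11 in KO mice. That of the interneuron genes was −0.080 to 0.21 and −0.17 to 0.11. Markers of principal cells mostly had the higher mean in KO mice: the log2 fold change was above 0 for 6 of 6 dentate granule cell markers (median 0.25), 4 of 4 CA1 markers (0.19), 3 of 5 CA3 markers (0.11) and 6 of 7 general ones (0.13), and 0 of them passed the limma threshold. The dentate marker sum was from 5276 to 11436 (median 7544) in WT mice and from 6564 to 11649.6 (median 10327) in KO mice, so that the genotypes overlapped. The highest interneuron value belonged to WT 522, the mouse with the lowest dentate granule cell marker sum. The lowest belonged to KO 553 and KO 530, whose dentate granule cell marker sums were 11044 and 11649.6, among the 3 highest of the 12. The part of these tissue differences in the receptor and interneuron values was not tested.

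**Figure D5:**
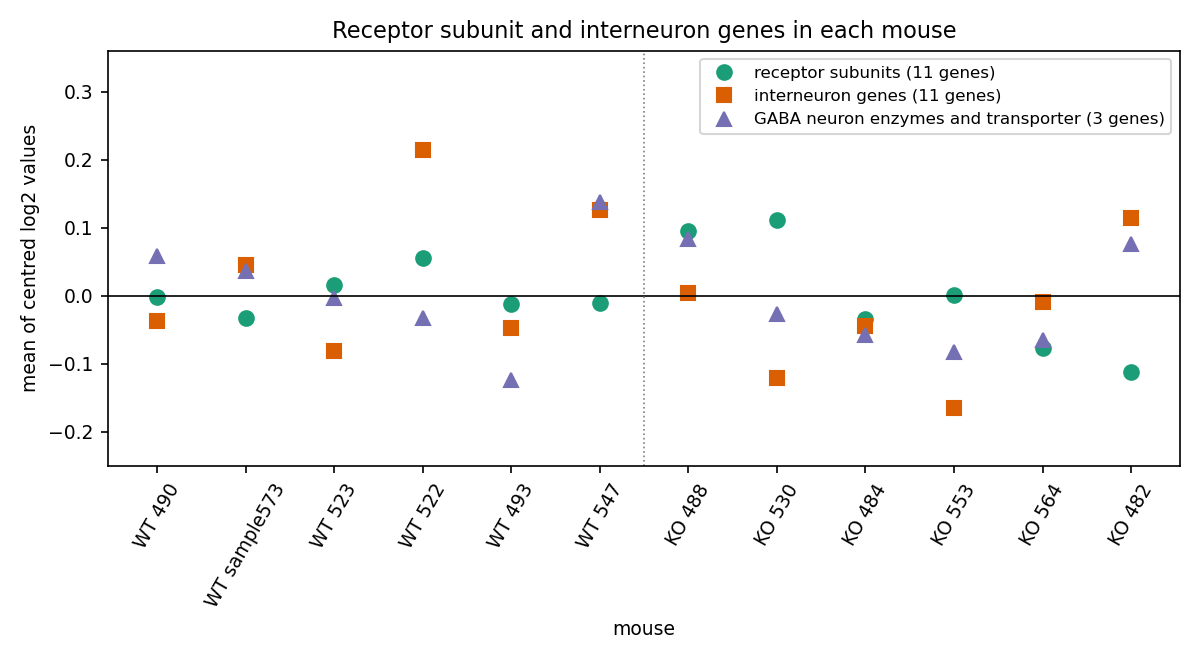
Mean over the genes of a list of the log2 values, each gene centred on its mean over the 12 mice (vertical axis), for receptor subunits, interneuron genes, and Gad1, Gad2 and Slc32a1 together; WT mice are left and KO mice right of the dotted line. The genotypes overlap in all 3 lists, and WT 522 has the highest interneuron value.

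Genes made by the same cells did not vary together across the 12 mice to a degree that held after adjustment over the 4 pairs examined (two-sided permutation tests). Pearson's r was 0.393 for Gad1 with Gad2 (permutation p = 0.205, adjusted 0.273; Spearman's rho 0.469, adjusted permutation p = 0.435). It was 0.432 for Sst with Npy (permutation p = 0.161, adjusted 0.273; rho 0.308, adjusted permutation p = 0.442). For Lhx6 with Pvalb it was −0.22 (permutation p = 0.491, adjusted 0.491; rho −0.14, adjusted permutation p = 0.668). Without the 2 mice farthest from the median of the first gene these r were 0.299, 0.113 and −0.48.

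Gabra4 and Gabrd, the subunits that assemble in dentate granule cells, came closest. Over the 12 mice r was 0.575 (permutation p = 0.0497, adjusted 0.199) and rho was 0.385 (adjusted permutation p = 0.435), and without the 2 farthest mice r was 0.645 (adjusted permutation p = 0.168). Within the 6 KO mice r was 0.948 (exact permutation p = 0.00972, adjusted 0.0389), where KO 484 was highest and KO 482 lowest in both genes, and rho was 0.943 (adjusted exact permutation p = 0.0667). The adjustment was over the 4 pairs within these mice and did not cover the choice among sets of mice. Within the 6 WT mice r was −0.016 (exact permutation p = 0.964). The difference between the genotypes was not tested, and with 6 points each r is imprecise.

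Sex moved none of the 29 genes past the threshold. With sex in the fit 0 of the 29 differed between males and females, against 0.0549% of all genes, and 1 of the 29 (Gad2) had an unadjusted p under 0.05, against 6.45% of all genes. Gad2 had a mean normalised count of 3405 in WT females and 3247 in WT males, and of 3488 and 3138 in KO females and males, a log2 difference, males minus females, of −0.11 (standard error of 0.0499, limma adjusted p = 0.761). An interaction of sex and genotype was called for no gene by limma (0 of 18221, 628 at an unadjusted p under 0.05), and 2 of the 29 had an unadjusted p under 0.05, against 3.45% of all genes. These were Gabrb2, with a WT mean of 1889.9 in females and 1896 in males and a KO mean of 2234 and 1803, and Gabrg3, with 591 and 650.4 in WT and 653 and 580.4 in KO mice. In both, KO females were above KO males, and the group means rest on only 2 WT males and 2 KO females.

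In the wider GABA pathway no gene passed the limma test either. Of 32 further genes (other GABA-A subunits, transporters, chloride carriers, receptor and synapse proteins) 28 were tested and 0 were called by limma or edgeR. At an unadjusted p under 0.05, 4 of the 28 were higher in KO mice, against 5.92% of all genes, and 1 was lower, against 7.60%. The 4 with higher values, of which 0 passed the limma threshold, were Lhfpl4, which anchors GABA-A receptors (3760.5 ± 119 in WT mice and 4051 ± 99.9 in KO mice (SD, n = 6 each), log2 fold change 0.11, limma adjusted p = 0.139), Slitrk3, an adhesion molecule of inhibitory synapses (0.24, adjusted p = 0.213), Insyn1, an inhibitory synapse protein (0.12, 0.327), and Slc12a5, the chloride exporter KCC2 of mature neurons (0.12, 0.299). Lhfpl4 was above the WT mean in 6 of 6 KO mice and was called by DESeq2 (adjusted p = 0.0222). Without WT 490 and WT 493, the mice with choroid plexus markers, the log2 fold change was 0.082 for Insyn1 and 0.071 for Slc12a5, and neither then had an unadjusted p under 0.05 (limma adjusted p = 0.741 for Insyn1 and 0.74 for Slc12a5).

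The gene with lower values was Slc12a2, the chloride importer NKCC1. It was 2362 ± 739 in WT mice and 1512 ± 171 in KO mice (SD, n = 6 each), a log2 difference of −0.59 (limma adjusted p = 0.123), and was called by DESeq2 (adjusted p = 0.00774) and by limma without WT 522, a setting that called 2.83% of all genes (−0.72, adjusted p = 0.0131). WT 493 and WT 490, the mice with choroid plexus markers, had the highest values (3522 and 2872), and WT 522, at 1448, lay among the KO mice, as it did in the summed oligodendrocyte markers. Without WT 490 and WT 493 the log2 fold change was −0.35 (adjusted p = 0.361). Both tissues are known to express the gene, and their part in its value was not tested.

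Of 35 further interneuron genes 32 were tested and 0 were called by limma or edgeR. At an unadjusted p under 0.05, 1 of the 32 was higher, against 5.92% of all genes (Ndnf, a marker of neurogliaform cells, 0.14), and 4 were lower, against 7.60%: Tac1, the tachykinin gene of some fast-spiking cells (−0.59), Crhbp, a binding protein for corticotropin-releasing hormone found in somatostatin interneurons (−0.38), Sox6, a factor downstream of Lhx6 (−0.20), and Erbb4, the neuregulin receptor of interneurons (−0.17). Adjusted p from limma were 0.125 for Tac1, 0.172 for Crhbp, 0.364 for Sox6, 0.358 for Erbb4 and 0.367 for Ndnf. Without WT 522 the log2 fold change was −0.14 for Sox6, −0.13 for Erbb4 and 0.11 for Ndnf, with limma adjusted p of 0.439, 0.428 and 0.426, and with sex as a covariate it was −0.14, −0.14 and 0.14. In neither setting did these 3 genes have an unadjusted p under 0.05. Tac1 was from 113 to 210.1 (median 160.4) in WT mice and from 85.0 to 149 (median 96.6) in KO mice, and DESeq2 called it (adjusted p = 0.0327). Crhbp was from 569 to 758 (median 618) in WT mice and from 352 to 578 (median 529.9) in KO mice, with WT 522 and WT 547 the highest mice. The median log2 fold change was −0.023 over these 32 genes and 0.053 over the 28 pathway genes. DESeq2 called 3 of the 60 genes of both lists (Lhfpl4, Slc12a2 and Tac1), against 3.74% of all genes given an adjusted p.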

How the data were processed

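Hippocampal RNA of 12 mice was sequenced, with 1 library per mouse; genotype and sex came from the sample labels. Per gene, the deposited signal is the count of reads after division by the library's size factor, which the authors made; their methods name the Basespace RNA-Seq app, STAR and DESeq2, and the submitters' processing notes name STAR 2.5.0a, edgeR 3.22.2 and mm10. The counter and the strand setting are not given in the sources used here. In each library 100% of the values were whole multiples (tolerance 0.01 reads) of its smallest value, so that reads were recovered; for WT 547 a separate automatic check could not verify this, since its step is close to 1. Gene coordinates are those deposited (GRCm38), 99.4% of which are the same in GENCODE M21, the source of exon lengths; promoters are from RefSeq.

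Since the values are normalised, the main test was limma 3.58.1 (R 4.3.3) on log2(normalised count + 1), two-sided, with the mean-variance trend, genotype only, genes with a mean of at least 10, Benjamini-Hochberg over all of them. edgeR 4.0.16 (quasi-likelihood, TMM) and DESeq2 1.42.0 on recovered reads were alternatives, beside a pseudocount of 0.5 or 5, no limit or a mean of at least 50, rescaled totals, quantile normalisation, sex as a covariate, no trend, a threshold of 0.1, and each mouse left out; leaving out the pairs of mice with thalamus or choroid plexus markers was chosen after seeing the data. The limma, edgeR and DESeq2 fits were tested on simulated counts. The genes and lists were chosen with earlier results of these data known, so lists are described by counts and medians with no test. All 29 genes are named, with single values or the lowest, median and highest for those with an unadjusted p under 0.05 or among the 2 largest log2 fold changes of their role, and other genes when their unadjusted p was under 0.05; Gabra2, Vip and single markers were picked later, with their values known. Correlations used 100000 permutations over 12 mice and exact ones within 6. Values of a few other genes are not reported here. Nothing states that mice of a genotype came from separate litters. The plots used matplotlib 3.10.9 in Python 3.11.15.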

Additional observations from a re-analysis of the deposited data

Results flagged for a closer look

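Each of the 29 genes was searched in each genotype for a mouse that lay far from the other 5, by Dixon's criterion for 6 values; chance flags about 1 in 20 groups, or about 2.90 of these 58, and 5 were found. WT 522 accounted for 3 of them: Gabra3 at 2597 normalised counts against 1262 to 1709 in the other WT mice, Vip at 657 against 318 to 443, and Gphn at 1487 against 1695 to 1795. In the same mouse summed dentate granule cell markers were the lowest of the 12 mice; the part of the dissection in these values was not tested. The others were Gad1 at 6379 in KO 553, the others of its group lying at 7157 to 7597, and Dlx6 at 115 in KO 482 against 70.6 to 83.9. Gabra2 in KO mice was not among them, since its 6 values lay in groups of 3.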

How the results depend on the processing

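Of 696 log2 fold changes of the 29 genes over 24 alternatives, 645 kept their direction and their side of the threshold, 1 became a call (Abat by DESeq2, −0.16) and 50 changed sign. The number of genes called was 0 in each alternative except 1 by DESeq2, and the number at an unadjusted p under 0.05 was 2 to 5, against 4, being 2 without WT 490 and WT 493. The 14 genes that changed sign all had log2 fold changes of 0.052 or less in size, so their direction is not determined. Signs changed with quantile normalisation for Slc32a1 (0.0021), Gabrg3 (0.0057), Gabbr1 (−0.033) and Sst (−0.00055), with sex as a covariate for Slc6a11 (0.052), Gabrg1 (0.034), Sst (−0.033) and Reln (0.0066), without WT 490 and KO 488 for Gabra2 (−0.073), Gabrb2 (−0.0071) and Sst (−0.028), and without WT 490 and WT 493 for Slc6a11 (0.019), Gabrb2 (−0.0041), Gabrg3 (0.027), Gabbr1 (−0.011), Sst (−0.042), Cck (−0.032) and Dlx1 (−0.034). Leaving out single mice gave these ranges of log2 fold change for genes that changed sign: Gad1 −0.048 to 0.011, Slc32a1 −0.044 to 0.022, Slc6a11 −0.12 to 0.031, Gabra2 −0.13 to 0.16, Gabrb2 −0.033 to 0.082, Gabrg1 −0.12 to 0.025, Gabrg3 −0.048 to 0.030, Gabrd −0.10 to 0.012, Gphn −0.048 to 0.0066, Sst −0.042 to 0.072, Reln −0.13 to 0.016 and Dlx1 −0.041 to 0.10. The cause was not tested. The median of the receptor subunits ran from −0.031 to 0.065 with 1 mouse left out, the lowest without KO 530, and that of the interneuron genes from −0.10 to −0.030. The correlation of Gabra4 with Gabrd was −0.016 within WT and 0.948 within KO mice, and that of Lhx6 with Pvalb was 0.0753 and 0.131. No paired analysis was possible because the labels give mouse numbers and no replicate numbers shared between genotypes. The lowest mean of the 29 genes was 87.7 normalised counts (Dlx6), and the spread between 6 mice per genotype, and the unequal sex ratio and dissection, limit what could be seen.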
